A study of Mus musculus with 8 samples.

Results

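The bile acid synthesis and export genes are 10 genes of the mouse liver, read here by 12 probes. They were taken by name: every non-control probe of the deposited table whose gene symbol was Cyp7a1, Cyp7b1, Cyp8b1, Cyp27a1, Nr0b2, Nr1h4, Abcb11, Abcb4, Baat or Slc27a5, out of 40646 probes with 21180 symbols. Whole liver of wild-type mice (WT, 4 samples) was compared with liver of mice lacking the microRNA miR-223 (miR-223KO, 4 samples). All 8 samples were labelled male, C57BL/6J and fed a high-fat diet for 3 months. The labels give neither how the knockout allele was made nor whether each sample is a separate mouse, so p-values measure only the spread between these samples. Liver RNA was labelled with Cy5 and hybridised on 2-colour Agilent arrays against a reference of assorted mouse total RNA labelled with Cy3, with no dye swap. Each value below is a log2 ratio of Cy5 over Cy3, and each change is the mean log2 ratio of miR-223KO minus that of WT.

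Bile acids are made from cholesterol in hepatocytes. CYP7A1 opens the classic pathway and CYP27A1 and CYP7B1 act in the alternative one, while CYP8B1 directs the product towards cholic acid. The finished acids are activated by the ligase encoded by Slc27a5, joined to taurine or glycine by BAAT and exported into bile by the pump encoded by Abcb11, while the Abcb4 product moves phospholipid into bile. Bile acids bind the nuclear receptor FXR (Nr1h4), which induces Nr0b2, encoding the repressor SHP, and Abcb11; SHP in turn represses Cyp7a1.

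The molecule removed in the knockout is shown first, because the groups are defined by it. Its main mature strand lies at chrX:96242884-96242905 on the plus strand of GRCm38.p6 (RefSeq), with the seed, bases 2 to 8, in capitals.
mmu-miR-223-3p: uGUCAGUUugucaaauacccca
On these arrays 0 probes carried the name Mir223, so its level was not analysed here.

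All 12 member probes were well above background in both channels on 8 of 8 arrays, so none was lost to a filter on dim probes. Between 49.5% and 69.8% of spots were well above background in Cy5 and between 61.3% and 71.2% in Cy3, and no spot was saturated. The scanner software flagged 2.00% to 5.67% of spots per array as outliers, and 7 of the 12 member probes had at least 1 flagged spot. Flagged spots were left out of the main fit, which left Cyp8b1 and Cyp27a1 with too few values to test; both are given from the fit that kept flagged spots. The arrays lay on 2 slides, slide 1 with replicates 1 and 2 of both groups and slide 2 with replicates 3 and 4 of both groups. The reference is labelled as mixed tissue, and the Cy5 and Cy3 log2 signals correlated at 0.955 to 0.978 across the probes of an array. The member ratios ran from -1.50 to 1.15. Of 32 probes for 17 genes that mark brain, muscle, heart, kidney, lung or testis, 12 were well above background in Cy3 on all 8 arrays, 5 of the 17 brain probes among them, against 53.1% of all probes. None of the 32 had a median log2 ratio below -1. How far the reference holds tissues other than liver was not tested.

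No member passed the test for miR-223KO against WT. Across the 16771 features tested, each a gene or an unnamed probe, limma's p-values were adjusted by Benjamini-Hochberg, and 0 of the 8 tested members had an adjusted p under 0.05, against 0.0119% of all features, 2 in number. The adjusted p of the 8 ran from 0.979 to 0.998. At an unadjusted p under 0.05 stood 2 of the 8, against 4.66% of all features. They were Cyp7a1, with a higher mean in miR-223KO, and Nr0b2, with a lower one, and either direction held 2.33% of all features. In all, 2 members had a higher mean in miR-223KO and 6 a lower one. Their median change was -0.23, beside -0.0096 over all features, of which 48.2% were higher. The median absolute change was 0.31 for the 8 members and 0.15 for all features. The SE ran from 0.20 to 0.33 among the 8 members, beside a median SE of 0.21 over all features. This difference in precision was not allowed for. With flagged spots kept, 0 of 10 members were called against 0.00562% of 17798 features, 3 were higher and 7 lower, and their median change was -0.15. In that fit 1 of 10, Nr0b2, stood at an unadjusted limma p under 0.05, against 4.7% of features. Groups that did not overlap were found for 0 of 10, against 2.75%. A different probe, A_51_P290981, stood for Cyp7a1 in that fit.

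**Figure D1:**
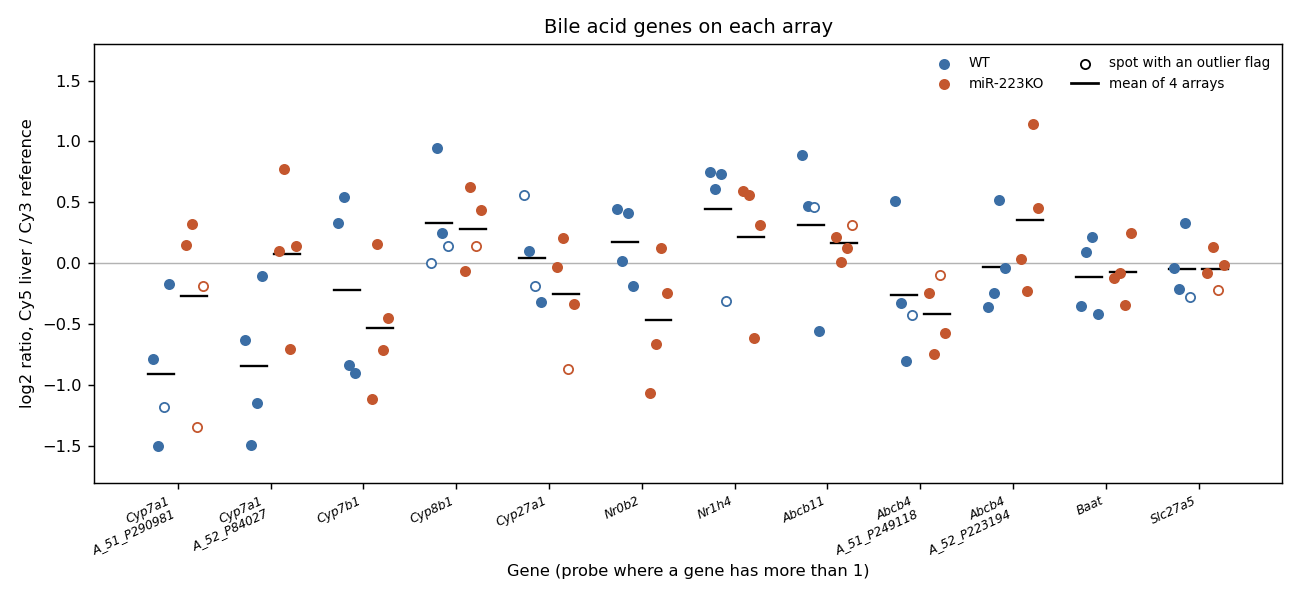
Log2 ratio of Cy5 liver over Cy3 reference for each of the 12 probes of the 10 genes on each array, WT and miR-223KO side by side, with open points for outlier-flagged spots and a bar for the mean of 4 arrays, flagged spots included. The groups overlap at every probe, and the largest gap between group means is that of Cyp7a1 probe A_52_P84027.

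Cyp7a1, which encodes the rate-limiting enzyme of the classic pathway, had the largest change of the members. With probe A_52_P84027 its log2 ratio was -0.63, -1.49, -1.14 and -0.11 in WT replicates 1 to 4, and 0.10, 0.78, -0.70 and 0.14 in miR-223KO replicates 1 to 4. In 3 of the 4 miR-223KO samples the value lay above every WT value, and miR-223KO replicate 3 lay within the WT range. The mean was -0.84 ± 0.60 (SD, n = 4) in WT and 0.08 ± 0.61 (SD, n = 4) in miR-223KO. The change was 0.92 (SE 0.31, 95% interval 0.26 to 1.58), a 1.89-fold higher mean, with limma's unadjusted p = 0.00936 and adjusted p = 0.979. After normalisation of the mean signals between arrays, the Cy5 signal alone differed by 1.01 and the Cy3 reference by 0.09.

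The second Cyp7a1 probe, A_51_P290981, had flagged spots on 3 arrays and could be read in full only with them kept. It then gave -0.79, -1.50, -1.18 and -0.17 in WT and 0.15, 0.32, -1.35 and -0.19 in miR-223KO. Here 2 miR-223KO samples lay above the WT range and 2 within it. The probes of Cyp7a1 followed each other over the 8 arrays at r = 0.944. The change with the second probe was smaller, 0.64 (SE 0.34), with limma's unadjusted p = 0.078. The authors' deposited table gave log2 fold changes of 1.12 and 0.62 for A_52_P84027 and A_51_P290981.

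Cyp8b1 encodes the sterol hydroxylase needed for cholic acid, and its promoter is shown because a motif of the liver factor HNF4A lies close to its start. Capitals mark CAAAGTCCA, at position -67 from the start site in the 250 bases before it, chr9:121916306-121916555 on the minus strand of GRCm38.p6 (RefSeq).
Cyp8b1 promoter: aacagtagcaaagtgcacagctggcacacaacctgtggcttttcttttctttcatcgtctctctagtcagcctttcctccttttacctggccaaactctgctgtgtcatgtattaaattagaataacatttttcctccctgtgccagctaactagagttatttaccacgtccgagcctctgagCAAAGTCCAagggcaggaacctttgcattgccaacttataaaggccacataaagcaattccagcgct
CAAAGTCCA on either strand stood in 0.384% of the 32851 mouse promoter windows of that length and in 1 of the 6 member promoters in the table. Its log2 ratio, with flagged spots kept, was 0.01, 0.94, 0.25 and 0.14 in WT and -0.07, 0.62, 0.14 and 0.44 in miR-223KO. The groups overlapped over most of their range, and replicate 2 was the highest of both. The change was -0.05 (SE 0.23, 95% interval -0.54 to 0.44).

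Cyp7b1, the oxysterol hydroxylase of the alternative pathway, varied more within the groups than between them. Its log2 ratio was 0.33, 0.54, -0.83 and -0.90 in WT and -1.12, 0.16, -0.71 and -0.45 in miR-223KO. WT split by slide, with both slide 1 samples high and both slide 2 samples low, and miR-223KO had no such split. The change was -0.31 (SE 0.33, 95% interval -1.02 to 0.39).

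Cyp27a1, the mitochondrial sterol hydroxylase, had flagged spots on 3 arrays. With these kept, its log2 ratio was 0.56, 0.10, -0.19 and -0.31 in WT and -0.03, 0.21, -0.87 and -0.33 in miR-223KO. Slide 1 samples were again the higher ones, in both groups, and the groups overlapped. The change was -0.30 (SE 0.25, 95% interval -0.83 to 0.24).

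The conjugation enzymes had the smallest changes. Slc27a5, the bile acid ligase, gave -0.04, -0.21 and 0.33 in WT replicates 1 to 3 and -0.08, 0.14 and -0.01 in miR-223KO replicates 1, 2 and 4, with the remaining spot of each group flagged. All miR-223KO values lay inside the WT range. The change was -0.011 (SE 0.22, 95% interval -0.49 to 0.46). Baat, the amino acid transferase, gave -0.35, 0.09, 0.21 and -0.41 in WT and -0.12, -0.08, -0.34 and 0.24 in miR-223KO. The groups spanned nearly the same range, and the change was 0.040 (SE 0.20, 95% interval -0.39 to 0.47).

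Nr0b2 encodes SHP, the repressor that FXR induces. Its promoter is shown because 2 copies of TCAAGG, the core that the receptor LRH-1 recognises, stand at positions -68 and -35, in capitals, in chr4:133553126-133553375 on the plus strand of GRCm38.p6 (RefSeq).
Nr0b2 promoter: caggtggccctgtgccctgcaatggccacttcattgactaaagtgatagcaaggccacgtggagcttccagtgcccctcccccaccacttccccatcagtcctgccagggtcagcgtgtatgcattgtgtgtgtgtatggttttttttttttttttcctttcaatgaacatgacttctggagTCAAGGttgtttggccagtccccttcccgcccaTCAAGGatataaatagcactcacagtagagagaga
TCAAGG on either strand stood in 12.5% of the promoter windows and in no other of the 6 member promoters. The log2 ratio of Nr0b2 was 0.44, 0.02, 0.41 and -0.19 in WT and -1.06, -0.66, 0.12 and -0.24 in miR-223KO. Replicates 1 and 2 of miR-223KO were clearly the lowest and replicate 4 just under the WT range, while replicate 3 lay inside it. The mean was 0.17 ± 0.31 (SD, n = 4) in WT and -0.46 ± 0.51 (SD, n = 4) in miR-223KO. The change was -0.63 (SE 0.25, 95% interval -1.16 to -0.11), a 1.55-fold lower mean, with limma's unadjusted p = 0.0209 and adjusted p = 0.979. After the same normalisation between arrays, the Cy5 signal differed by -0.45 and the Cy3 reference by 0.19. Part of the ratio's change thus stood in the reference channel, which does not hold the compared samples. Its unadjusted limma p rose above 0.05 when WT replicate 1 or 3 or miR-223KO replicate 1 or 2 was left out, to 0.0903 at most.

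Nr1h4 encodes FXR, the bile acid receptor. Its log2 ratio was 0.75, 0.61 and 0.73 in WT replicates 1 to 3 and 0.60, 0.56, -0.61 and 0.32 in miR-223KO. WT replicate 4, at -0.31, had a flagged spot; without it the groups did not overlap, the only tested member for which this held, against 3.08% of all features and 1.44% in the lower direction. With it the groups overlapped. The change was -0.48 (SE 0.27) without that spot and -0.23 (SE 0.29) with it.

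Abcb11 encodes the bile salt export pump, and its promoter is shown because the letters AGGCCATTGACCT, 2 receptor half-sites facing each other with 1 base between them, stand at position -63, in capitals. The window is chr2:69342617-69342866 on the minus strand of GRCm38.p6 (RefSeq).
Abcb11 promoter: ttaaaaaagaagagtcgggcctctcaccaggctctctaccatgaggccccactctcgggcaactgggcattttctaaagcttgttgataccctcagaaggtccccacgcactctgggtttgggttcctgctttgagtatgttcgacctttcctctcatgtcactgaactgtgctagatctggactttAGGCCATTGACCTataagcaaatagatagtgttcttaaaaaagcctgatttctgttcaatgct
Such an inverted repeat of the FXR type, with the searched letters chosen after this promoter was read and any base allowed at the fourth and the seventh place, stood on either strand in 11 of the 32851 windows (0.0335%). It overlaps the half-site AGGTCA, read here on the opposite strand as TGACCT at position -56, which stood in 14% of windows and in the Nr1h4 window too. A further pattern, TTATGTAA, which the clock-driven PAR bZIP factors recognise, stood in 0.819% of windows and in 0 member windows. These matches are letters in a window and were not measured as binding.

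The log2 ratio of Abcb11 was 0.89, 0.47 and -0.56 in WT replicates 1, 2 and 4 and 0.21, 0.01 and 0.12 in miR-223KO replicates 1 to 3, with the remaining spot of each group flagged. WT spread widely, with replicate 4 far below the others, and all miR-223KO values lay inside its range. The change was -0.15 (SE 0.31, 95% interval -0.81 to 0.51).

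The probes of Abcb4, the phospholipid floppase, differed in direction. Probe A_51_P249118, which stood for the gene in the counts above, gave 0.51, -0.32 and -0.80 in WT replicates 1 to 3 and -0.24, -0.75 and -0.57 in miR-223KO replicates 1, 2 and 4, a change of -0.31 (SE 0.30). Probe A_52_P223194 gave -0.36, -0.24, 0.52 and -0.04 in WT and 0.03, -0.23, 1.15 and 0.45 in miR-223KO, a change of 0.38 (SE 0.27). The groups overlapped at both probes, which were related at r = -0.19 over the 8 arrays, so no direction is given for Abcb4.

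**Figure D2:**
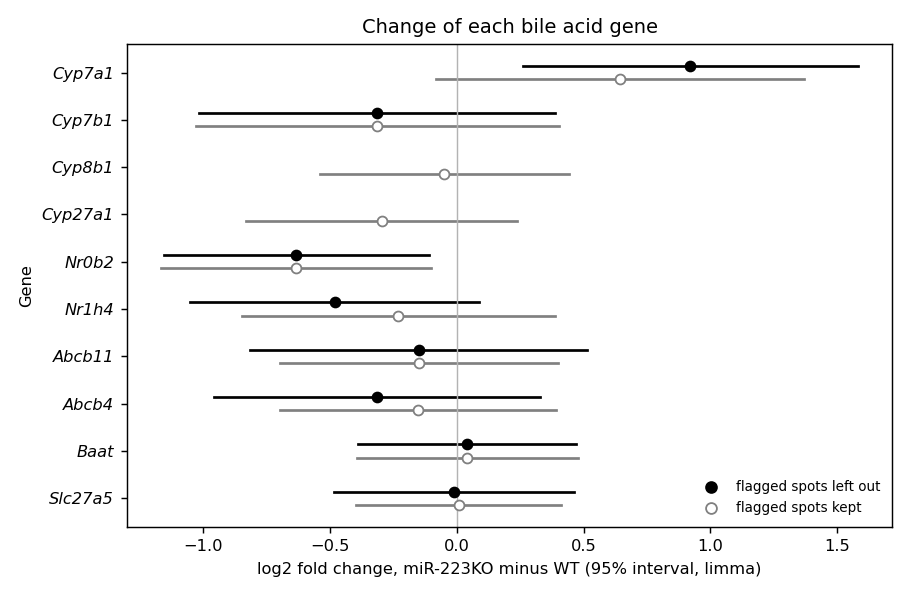
Change in log2 ratio, miR-223KO minus WT, with its 95% interval from limma, for the 10 genes, with outlier-flagged spots left out (filled) and kept (open). When flagged spots are left out, the interval lies wholly above 0 for Cyp7a1 and wholly below 0 for Nr0b2. It covers 0 for the other tested genes. For Cyp7a1 the filled point is probe A_52_P84027 and the open point is probe A_51_P290981.

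With the repressor SHP and its target measured on the same arrays, Cyp7a1 and Nr0b2 could be set against each other. Over the 8 arrays their log2 ratios were related at Pearson r = -0.72 and Spearman rho = -0.71. After the group means were removed, r was -0.50. The arrays share a reference and fall on 2 slides, and the groups differ in both genes, so r is given as a description with no test. The lowest Nr0b2 values, in miR-223KO replicates 1 and 2, came with 2 of the 3 highest Cyp7a1 values. Nr1h4, upstream of both, was related with flagged spots kept at r = -0.08 to Cyp7a1 and at r = -0.04 to Nr0b2. Within the groups these were 0.11 and -0.27, and Spearman rho was -0.33 and 0.40. Among the other members, with flagged spots kept, Cyp27a1 and Nr1h4 were most alike, at r = 0.82 and 0.81 within the groups. Nr1h4 and Abcb11 were related at r = 0.65, Cyp7b1 and Cyp8b1 at 0.65 and Cyp7b1 and Cyp27a1 at 0.63.

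**Figure D3:**
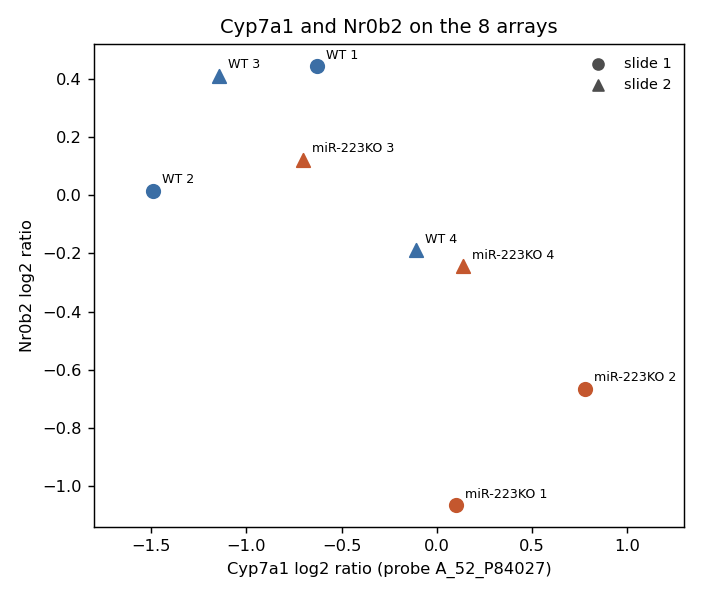
Log2 ratio of Nr0b2 against that of Cyp7a1 (probe A_52_P84027), 1 point per array, coloured by group and shaped by slide. The 8 points run from high Nr0b2 with low Cyp7a1 to low Nr0b2 with high Cyp7a1 (r = -0.72), and the slide 1 points of the groups stand farthest apart.

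The genes whose log2 ratio over the 8 arrays was most like that of Cyp7a1, among 12897 compared, were Fadd (r = 0.971), Esco1 (0.950) and Sdhaf4 (0.943). For Nr0b2 they were E2f2 (0.968), Il13 (0.931) and Eps15l1 (0.919). For Abcb11, over the 6 arrays with an unflagged value, they were Msrb3 (0.998), Coil (0.988) and Kynu (0.987). These are the closest of many genes over few arrays, given as a description.

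Within the slides the members differed in how far the groups stood apart. For Cyp7a1 the miR-223KO mean was higher on both, by 1.50 on slide 1 and 0.34 on slide 2. For Nr0b2 it was lower on both, at -1.09 and -0.17. Cyp7b1 stood at -0.92 on slide 1 and 0.29 on slide 2, and Abcb11 at -0.57 and 0.68, so both turned direction. So did Abcb4 by probe A_51_P249118 (-0.59 and 0.23), Slc27a5 (0.15 and -0.34) and, with flagged spots kept, Cyp8b1 (-0.20 and 0.09). The other Abcb4 probe stood at 0.20 and 0.56. On slide 2 Abcb11, Slc27a5 and Abcb4 probe A_51_P249118 had 1 unflagged value in each group. With flagged spots kept, the difference of Abcb11 there was 0.27. Nr1h4 stood at -0.10 and -0.88, the latter against 1 unflagged WT value, and at -0.36 on slide 2 with the flagged spot kept. A genotype-by-slide term in limma, added after these values were seen, passed adjustment for 0 of 16771 features. Its value was -1.15 for Cyp7a1 (adjusted p = 0.532), 1.20 for Cyp7b1 (0.492), 0.92 for Nr0b2 (0.506) and 1.25 for Abcb11 (0.490), slide 2 minus slide 1. Each slide held at most 2 unflagged values of a group, which limits what this term could detect, and for Abcb11 the term rests on 1 value of each group on slide 2.

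**Figure D4:**
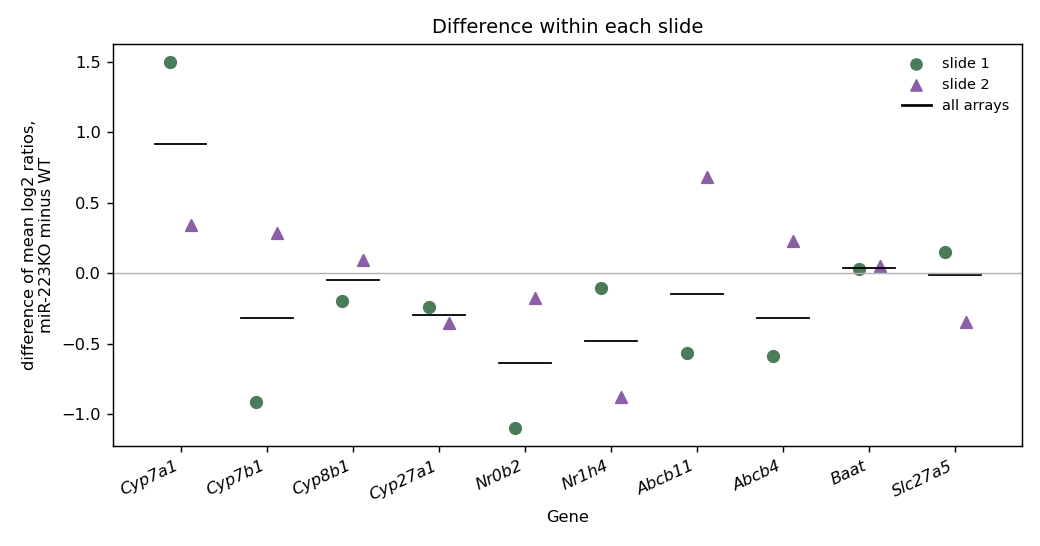
Difference of mean log2 ratios, miR-223KO minus WT, within slide 1 (circles), within slide 2 (triangles) and over all arrays (bars), for the members. Cyp7a1 is above 0 and Nr0b2 below 0 on both slides. Cyp7b1, Cyp8b1 (flagged spots kept), Abcb11, Abcb4 and Slc27a5 lie on opposite sides of 0 on the slides. Of these, Abcb11, Abcb4 and Slc27a5 have 1 unflagged value of each group on slide 2.

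The wider pathway was read from lists of genes by role. Of 16 other synthesis genes 8 could be tested; 4 were higher and 4 lower, 0 were called, and the median change was 0.04. Those with the smallest p were Ch25h, the cholesterol hydroxylase of oxysterol synthesis, at -0.27 (SE 0.19), Amacr, the racemase of side-chain oxidation, at 0.25 (SE 0.20), and Akr1d1, the steroid reductase, at -0.29 (SE 0.24). All 16 synthesis genes could be tested with flagged spots kept, 8 higher and 8 lower, with a median of 0.0030 and 0 called. The smallest p in that fit were those of Acnat1, at 0.51 (SE 0.21), and Ephx1, at 0.56 (SE 0.27). Both had limma's adjusted p = 0.977 and were named after their values were seen. Of 14 transporters 11 were tested, 7 higher and 4 lower, with a median of 0.15, and 1 was called. That was Slco1a1, an organic anion uptake carrier, which fell by 1.88 on the log2 scale (SE 0.21, limma adjusted p = 0.00253). Its other probe stood at -1.77. With flagged spots kept, which returns WT replicate 3, the change was -1.57 and limma's adjusted p = 0.203, so the call was lost. It was also lost without WT replicate 1 (-1.69, limma adjusted p = 0.806), WT replicate 2 (-1.57, 0.364) or WT replicate 4 (-1.76, 0.282). In those fits the first probe had fewer than 3 unflagged WT values, so the other probe stood for Slco1a1. The loss there thus goes with a change of probe as well as of samples. Slc10a2, a bile acid uptake carrier, stood at -0.48 (SE 0.30), and at -0.25 and -0.18 by its other probes. The basolateral exporter Abcc4 stood at 0.29 (SE 0.19). When flagged spots were kept, all 14 transporters were tested, 8 higher and 6 lower, with a median of 0.14 and 0 called. Among them Slc10a1, another bile acid uptake carrier, stood at -0.36 (SE 0.21, limma's adjusted p = 0.977), named after its value was seen.

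Of 19 regulators 16 were tested, 7 higher and 9 lower, with a median change of -0.08 and 0 called. Foxo1, the insulin-restrained transcription factor, stood at 0.62 (SE 0.18) by the probe that stood for it, with limma's unadjusted p = 0.00366 and adjusted p = 0.979, and at -0.09 by its other probe. Mafg, a transcriptional repressor induced by FXR, stood at -0.35 (SE 0.18) and at -0.47 by its other probe. Ppargc1a, a coactivator of fasting metabolism, stood at -0.27 (SE 0.18). Of 7 detoxification genes 6 were on the array and 2 could be tested. Cyp2b10, a target of the receptor CAR, stood at 0.58 (SE 0.23, limma's unadjusted p = 0.0224, adjusted p = 0.979), and at 0.33 by its other probe. Ugt1a1, the bilirubin glucuronosyltransferase, stood at -0.06 (SE 0.23). With flagged spots kept, 6 were tested, 3 higher and 3 lower, with a median of -0.06 and 0 called. They ran from Sult1a1, a sulfotransferase, at -0.57 to Cyp3a11, a bile acid hydroxylase, at 0.90 (SE 0.20, limma's adjusted p = 0.444), both named after their values were seen.

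**Figure D5:**
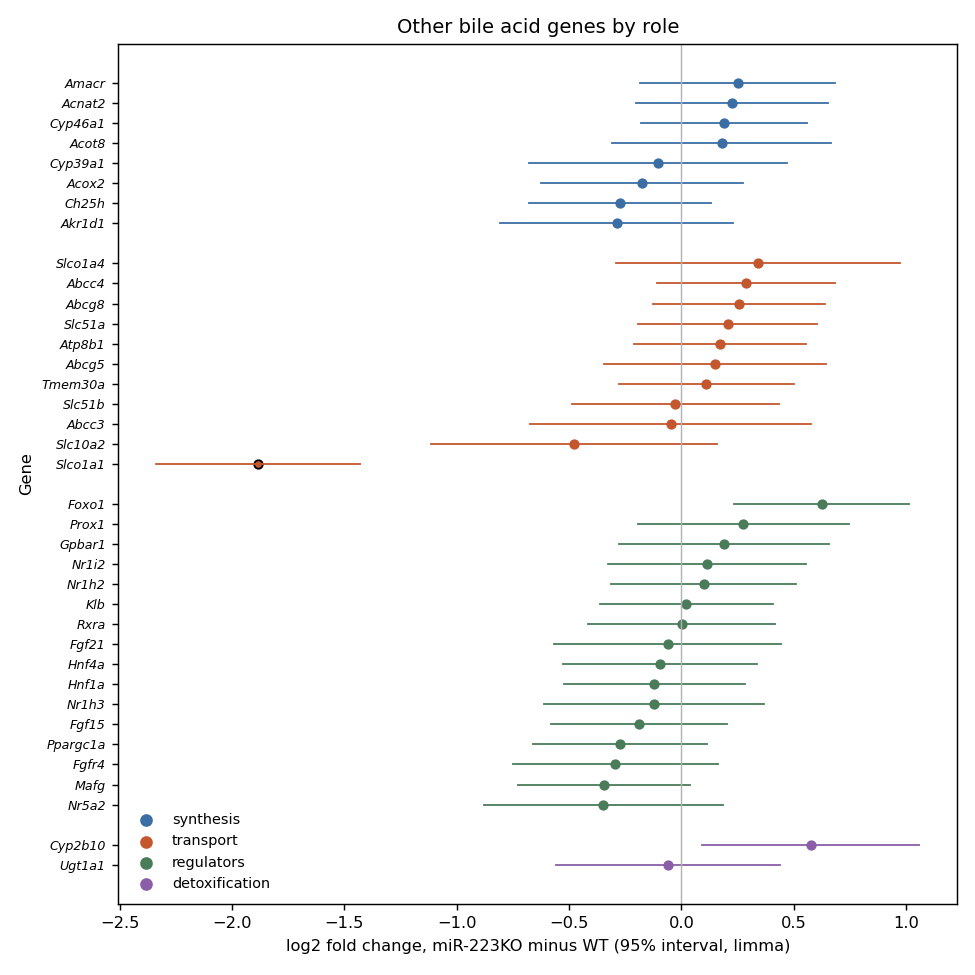
Change in log2 ratio, miR-223KO minus WT, with its 95% interval from limma, for the tested genes of the 4 pathway lists, which hold none of the 10 members, coloured by role. Slco1a1, at -1.88, stands apart on the left, and the other genes lie between -0.48 (Slc10a2) and 0.62 (Foxo1).

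Markers of liver cell types were measured beside the members. The 5 tested hepatocyte markers all had lower means in miR-223KO, with a median change of -0.55 and 0 called. At an unadjusted limma p under 0.05 stood 2, Fga at -0.82 (SE 0.25) and Alb at -0.66 (SE 0.25). The Cy5 signal alone differed by -0.42 for Fga and -0.27 for Alb, and the Cy3 reference by 0.40 and 0.39. For Apoa1, Ttr and Hnf4a the Cy3 reference differed by 0.37, -0.14 and -0.12. Median centring gave -0.82 for Fga and -0.18 for Alb. With flagged spots kept, 10 were tested, 2 higher and 8 lower, with a median of -0.18, and their mean log2 ratio ran from 0.55 to 0.91 in WT and from 0.29 to 0.69 in miR-223KO. Cyp7a1 thus had a change of opposite sign to most hepatocyte markers and Nr0b2 of the same sign. Of 11 tested Kupffer cell and macrophage markers 9 were higher and 2 lower, with a median of 0.37 and 0 called. Trem2 stood at 0.57 and Csf1r at 0.54. Other probes gave 0.16 for Trem2, and 0.37 and 0.31 for Csf1r. The mean of the 11 markers ran from -0.38 to 0.59 in WT and from -0.08 to 0.59 in miR-223KO.

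Of 9 cholangiocyte markers 2 were higher and 7 lower, with Krt7 at -0.58 and Sox9 at -0.36. Other probes gave -0.24 for Krt7, and -0.25 and -0.39 for Sox9. The Cy5 signal differed by -1.48 for Krt7 and -0.46 for Sox9, and the Cy3 reference by -0.90 and -0.10. Among 5 neutrophil markers 1 was higher, S100a9 at 0.61, and 4 were lower, Csf3r at -0.21 among them. Of 12 circadian genes 3 were higher and 9 lower, with a median of -0.11 and with Per3 and Nr1d1 both at -0.33. Of 12 acute phase genes 4 were tested, 3 higher and 1 lower, with Lcn2 at 0.82 and Il1b at 0.22. When flagged spots were kept, 11 were tested, 7 higher and 4 lower, with a median of 0.16 and 0 called. Of 9 stellate markers 4 were higher and 5 lower, with a median of -0.0023, and those with the smallest p were Pdgfrb at 0.24 and Col1a1 at 0.35, which was 0.032 without WT replicate 1. With flagged spots kept, 7 stellate markers were higher and 2 lower, with a median of 0.13 and 0 called. Of 8 endothelial markers 5 were higher and 3 lower, with a median of 0.06, and Lyve1 stood at 0.41 and Clec4g at 0.17. None of these markers passed the test, and their part in the members' values was not tested. In whole liver, fewer cells of a type and less RNA per cell cannot be told apart.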

How the data were processed

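Liver RNA (Cy5) of 4 WT and 4 miR-223KO samples was measured against a Cy3 reference on 8 arrays, per the labels. The deposited scanner files hold spot intensity from Agilent Feature Extraction 12.0.3.1 (protocol GE2_1200_Jun14, design 014868, build mm9), per the file headers. They also hold a deposited log ratio of the dyes on a log10 scale. Per probe, the authors' table gives each array's log2 ratio and a log2 fold change.

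Where the local background of a spot was itself flagged, the median unflagged background of its array and channel was used. Median spot signals were background-corrected with normexp (offset 50) and normalised by loess within each array in limma 3.58.1 (R 4.3.3). Control and outlier-flagged spots were dropped. Testing required a Cy5 signal well above background on 4 or more of the 8 arrays and 3 or more values per group; the brightest tested probe stood for a gene. The test was limma's moderated one, two-sided, through lmFit and eBayes, with Benjamini-Hochberg adjustment over all 16771 features, which was also tested on simulated data. The array number limits the precision.

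The members and lists were chosen with earlier results of these data known. Named genes were the members, the called genes and 3 smallest p of each pathway list, the 2 smallest p of each marker list, and the 3 genes most like Cyp7a1, Nr0b2 and Abcb11. The tissue markers set against the reference were chosen after the data were seen. Promoters (6 of 10 members matched) and miRNAs came from RefSeq GRCm38.p6. Alternatives were the background offset, the processed signals, the normalisation, the flag and dim-probe filters, the probe rule, slide and replicate blocks, the authors' table and leaving out each sample.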

Additional observations from a re-analysis of the deposited data

Results flagged for a closer look

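Nr1h4 in WT replicate 4 stood far from the other WT samples, at a log2 ratio of -0.31. Its gap to the nearest WT value was 0.869 of the group's whole range, above Dixon's 95% critical value for 4 samples. The spot also carried the scanner software's outlier flag. This was 1 of 24 groups of 4 values checked in this way, and chance alone puts some groups past the critical value.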

How the results depend on the processing

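Under all 19 alternatives with a value, Cyp7a1 kept a positive change (0.62 to 1.18) and Nr0b2 a negative one (-0.83 to -0.43). Leaving out single samples gave 0.69 to 1.18 for Cyp7a1 and -0.83 to -0.43 for Nr0b2, with unadjusted limma p up to 0.0415 and 0.0903. The unadjusted limma p of Cyp7a1 was also 0.0784 with flagged spots kept and 0.233 in the authors' table. In both, the other probe, A_51_P290981, stood for the gene. Probe A_52_P84027, which had no flagged spot, still gave 0.92 with flagged spots kept (limma's unadjusted p = 0.00998, fitted per probe). The unadjusted limma p of Nr0b2 was 0.192 with median centring, 0.0688 with the processed signals and 0.0855 in the authors' table. No member passed the test under any alternative. Outside the within-slide values, Cyp7b1 (-0.54 to -0.060, the weakest without WT replicate 2), Cyp27a1 (-0.45 to -0.084, median centring) and Nr1h4 (-0.61 to -0.13, the authors' table) kept their direction under each alternative that gave a value. Without miR-223KO replicate 3, Cyp27a1 stood at -0.092 and Nr1h4 at -0.21. Cyp8b1 turned with the processed signals (0.0026), median centring (0.19), the authors' table (0.0026) and on leaving out WT replicate 2 (0.15) or miR-223KO replicate 1 (0.066); its range over left-out samples was -0.16 to 0.15. Abcb11 turned with the processed signals (0.033) and the authors' table (0.022). Abcb4 turned with the mean of its probes (0.22), and leaving out single samples gave -0.31 to 0.57 because the other probe then stood for the gene. Baat ranged from -0.066 to 0.15 over left-out samples. Slc27a5 turned with median centring (0.067), flagged spots kept (0.0069) and the authors' table (0.061). Ugt1a1 turned with median centring (0.21), and leaving out single samples gave -0.18 to 0.071. The other genes named by rule from the lists kept their direction in the fits over both slides. Their size could move. Abcc4 ranged from 0.16 to 0.96 (the authors' table) and Ch25h from -0.65 (the processed signals and the authors' table) to -0.09 (median centring). Neither passed the test under any alternative. Cyp3a11, Sult1a1, Slc10a1, Acnat1 and Ephx1 were not run. The Slco1a1 call was lost in 8 of 19 alternatives: with the processed signals (-2.45, limma adjusted p = 0.0617), median centring (-1.76, 0.624), flagged spots kept, the mean of its probes (-1.73, 0.0621), the authors' table (-1.90, 0.954) and without 3 of the single samples, over which the change ranged from -1.99 to -1.57. Without those samples, WT replicates 1, 2 and 4, the other Slco1a1 probe stood for the gene. The cause of these turns and losses was otherwise not tested.

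The features past the test, 2 of 16771, were 4 with an offset of 16, and 1 with the processed signals, median centring, flagged spots kept, the mean of a gene's probes or the authors' table; the cause was not tested. Leaving out single samples gave 1 to 3. The labels do not say that a replicate number pairs samples, and deviations of same-numbered samples correlated at -0.03 to 0.06. With the replicate number as a block the features past the test were 2, Cyp7a1 stood at 0.92 and Nr0b2 at -0.63 (both limma adjusted p = 0.989), and Slc27a5 turned to 0.15 and Ugt1a1 to 0.035. The number of arrays limits precision: the median SE was 0.21.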

Other observations

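A further probe, A_52_P43150, maps to Baat by its accession but is absent from the authors' deposited table, so it is no member. It had flagged spots on 5 arrays, and with these kept its mean log2 ratio was -0.48 ± 0.15 (SD, n = 4) in WT and -0.48 ± 0.38 (SD, n = 4) in miR-223KO. Its groups thus lay together, as did those of the Baat probe described above.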
